A study of Homo sapiens with 9 samples.

Results

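The 7SL and 7SK RNAs, the RNA of RNase P, the RNA of RNase MRP and the Y RNAs are short structured RNAs that RNA polymerase III transcribes and that work inside protein complexes. The RNAs described here are RN7SL1 and RN7SL2 (7SL), RN7SK (7SK), RPPH1 (the RNase P RNA), RMRP (the RNase MRP RNA), RNY1 and RNY3 (Y RNAs). They were chosen by name, as the 7 rows of the gene table whose Ensembl identifier carries one of these symbols, out of 61853 rows. Of the 7, 5 had enough counts to be tested, and RNY1 and RNY3 did not.

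RNA was sequenced from 293T cells, a human cell line of embryonic kidney origin with the SV40 large T antigen, after ribosomal RNA had been depleted. In the DIS3-sh1 group (3 libraries, genotype labelled as a DIS3 knockdown) the cells were given the shRNA DIS3-sh1, and in the Scramble group (3 libraries, genotype labelled WT) they were given a scramble shRNA. DIS3 is a nuclease of the RNA exosome, the complex that degrades and trims RNA from its 3′ end, and the series asks how its knockdown changes circular RNAs. The design text calls the libraries of a group biological replicates, and the DIS3-sh1 group rests on 1 shRNA. DIS3-sh2, a second shRNA named in the labels, is not analysed here.

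RNA polymerase III ends its transcripts at a run of U, which the La protein binds. 7SL is the RNA backbone of the signal recognition particle, which takes ribosomes that are making secreted and membrane proteins to the endoplasmic reticulum. 7SK holds the kinase P-TEFb (CDK9 with cyclin T) inactive together with HEXIM proteins. RNase P trims the 5′ end of transfer RNA precursors, RNase MRP takes part in the processing of ribosomal RNA, and both share most of their protein subunits. Y RNAs bind the Ro60 protein.

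The 6 libraries held between 19800892 and 21100677 counts in DIS3-sh1 and between 20722775 and 23532148 counts in Scramble. DIS3, the targeted gene, measured 26.6, 27.8 and 27.9 CPM in DIS3-sh1, against 175.8, 186.1 and 177.1 CPM in Scramble. Its log2 fold change was -2.71 ± 0.04 (SE, edgeR adjusted p 6.76e-30). The markers chosen for the line, NEFM, LIN28B, PAX2, KRT18 and VIM, were expressed in all 6 libraries, with PAX2 the lowest at 4.05 to 4.75 CPM in DIS3-sh1 and 1.10 to 2.28 CPM in Scramble. PTPRC, ALB and HBB, genes of blood and liver cells, stayed at or under 0.286 CPM. Counts of mitochondrial genes took 2.78 to 3.47% of a library in DIS3-sh1 and 2.20 to 2.23% in Scramble, and their part in the results was not tested.

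The 7SL rows of the table are 7SL genes and pseudogenes, whose sequences were not compared here. A read may fit several of them, and how such reads were assigned is not given in the sources used here. The sequences of the 7SK, RNase P and RNase MRP RNAs are given from the GENCODE 29 transcripts on GRCh38, with U written as T.

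The 7SK stretch is shown because its 5′ hairpin region is where HEXIM is known to bind, with the motif GATC in capitals. RN7SK lies at chr6:52995621-52995948 on the plus strand and is 328 bases long, and bases 1 to 100 are printed.
RN7SK: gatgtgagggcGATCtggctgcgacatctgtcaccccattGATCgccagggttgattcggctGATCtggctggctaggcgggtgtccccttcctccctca
The motif, which is its own reverse complement, occurred 3 times in RN7SK, at bases 12, 41 and 63. Of 190637 GENCODE transcripts at least as long, 7.26% hold as many in their first 328 bases, and 60.1% hold at least 1. The match describes the letters and not a binding site in these cells.

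The RNase P and RNase MRP RNAs are shown together because they share proteins and only RPPH1 was called. Capitals mark their longest shared run, 9 bases. The run describes the letters, and whether unrelated sequences of these lengths share runs as long was not tested. RPPH1 lies at chr14:20343075-20343407 on the minus strand (333 bases, of which bases 1 to 300 are printed) and RMRP at chr9:35657754-35658017 on the minus strand (264 bases, printed whole).
RPPH1: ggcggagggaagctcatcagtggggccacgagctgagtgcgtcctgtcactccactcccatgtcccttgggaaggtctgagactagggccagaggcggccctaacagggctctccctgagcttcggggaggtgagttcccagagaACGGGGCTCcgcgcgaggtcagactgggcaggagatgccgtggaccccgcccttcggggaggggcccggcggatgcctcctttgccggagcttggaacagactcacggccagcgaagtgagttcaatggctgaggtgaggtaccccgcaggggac
RMRP: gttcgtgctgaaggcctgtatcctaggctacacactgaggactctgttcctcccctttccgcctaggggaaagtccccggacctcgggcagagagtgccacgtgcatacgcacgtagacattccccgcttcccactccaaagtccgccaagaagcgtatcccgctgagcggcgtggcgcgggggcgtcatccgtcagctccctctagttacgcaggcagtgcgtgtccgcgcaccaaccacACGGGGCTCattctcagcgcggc

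Several of these genes were listed more than once in the table. The RN7SK row (ENSG00000283293.1) had the same value in all 6 libraries as a further row for 7SK (ENSG00000202198) at nearly the same coordinates. The RMRP row (ENSG00000277027.1) had the same value in all 6 libraries as a second RMRP row (ENSG00000269900). The RPPH1 row (ENSG00000277209.1) matched a row for AL355075.4 (ENSG00000259001), which contains it on the same strand, in 5 of 6 libraries, with a largest difference of 1 count. The RN7SL2 row (ENSG00000274012.1) stayed within 35 counts of the row for AL627171.2 (ENSG00000282885), in whose intron it lies in GENCODE 29. Of the 17559 rows with at least 100 counts, only 10 were identical to another row. Whether each row holds all or a part of the shared reads cannot be told, so a level per RNA is uncertain by that factor, while both rows give the same fold change.

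RN7SL1 (ENSG00000276168.1) had no such second row. It lies inside an intron of RPS29, a ribosomal protein gene on the opposite strand, and whether counting used strand is not given in the sources used here. RPS29 held 3674.58 to 4661.17 counts in DIS3-sh1 and 2949.17 to 3567.5 counts in Scramble, against 553262 to 676651 counts of RN7SL1 in DIS3-sh1 and 345832 to 391052 counts in Scramble.

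Of the 5 RNAs tested, 4 were higher in DIS3-sh1 (RN7SL1, RN7SL2, RN7SK and RPPH1), 0 were lower, and RMRP was not called. RN7SL1 and RN7SL2 are rows for the same RNA and may share reads. Each is counted separately here, so the counts and the median of the 5 do not rest on independent RNAs. The mean level of the 4 was 1.60 to 1.77 times as high in DIS3-sh1 as in Scramble. The counts were the same at an unadjusted p under 0.05, and DESeq2 called the same 4. Among all 19591 genes tested, 67.0% were called in either direction (edgeR quasi-likelihood test, adjusted p under 0.05), 34.5% as higher and 32.6% as lower in DIS3-sh1, so a call by itself is common in these libraries. Upper-quartile scaling gave 7745 higher and 5471 lower calls, against 6751 and 6379 with TMM. All 3 DIS3-sh1 libraries lay above every Scramble library for the same 4 RNAs, and for 35.6% of all genes tested. The reverse, all 3 DIS3-sh1 libraries below every Scramble library, held for 0 of the 5 and for 34.2% of all genes tested. The median log2 fold change was 0.70 over the 5 RNAs and 0.02 over all genes tested. The RNAs were chosen with earlier results of these data known, so their counts beside those of all genes are a description and not a test.

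RN7SL1, the most abundant, measured 31853, 27594 and 27729 TMM-scaled CPM (CPM, each library's counts divided by its total and put on a common scale by the TMM method) in DIS3-sh1, against 16844, 16484 and 17332 CPM in Scramble. Every DIS3-sh1 library was higher than every Scramble library, and DIS3-sh1 replicate 1 was the highest of all. The means were 29059 ± 2421 CPM in DIS3-sh1 and 16887 ± 426 CPM in Scramble (SD, n = 3 each). The log2 fold change was 0.78 ± 0.07 (SE), with a 95% interval of 0.59 to 0.97 and an edgeR adjusted p of 0.000601.

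RN7SL2, also a 7SL row, measured 12291, 10868 and 10874 CPM in DIS3-sh1, against 6383, 6287 and 6525 CPM in Scramble. The groups did not overlap, and DIS3-sh1 replicate 1 was again the highest. Its log2 fold change was 0.83 ± 0.06 (SE; 95% interval 0.66 to 0.99, edgeR adjusted p 0.000232).

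RN7SK, which keeps P-TEFb inactive, measured 9713, 9240 and 9458 CPM in DIS3-sh1, against 5926, 5794 and 6018 CPM in Scramble. The groups did not overlap, and the libraries within each lay close together. The means were 9470 ± 237 CPM in DIS3-sh1 and 5913 ± 113 CPM in Scramble (SD, n = 3 each). The log2 fold change of 0.68 ± 0.02 (SE; 95% interval 0.64 to 0.72) had the smallest adjusted p of the 5, 8.00e-24 by edgeR.

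RPPH1, the catalytic RNA of RNase P, measured 5607, 4690 and 4926 CPM in DIS3-sh1, against 3125, 3132 and 3143 CPM in Scramble. The groups did not overlap, and the 3 Scramble libraries were nearly equal. Its log2 fold change was 0.70 ± 0.08 (SE; 95% interval 0.49 to 0.90, edgeR adjusted p 0.00125).

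RMRP, the RNA of RNase MRP, measured 1515, 1870 and 1980 CPM in DIS3-sh1, against 1595, 1553 and 1707 CPM in Scramble. The groups overlapped: DIS3-sh1 replicate 1 was the lowest of the 6 libraries, and DIS3-sh1 replicates 2 and 3 were the highest. The means were 1788 ± 243 CPM in DIS3-sh1 and 1618 ± 79.8 CPM in Scramble (SD, n = 3 each). The log2 fold change was 0.14 ± 0.12 (SE; 95% interval -0.18 to 0.47, edgeR adjusted p 0.352). Without DIS3-sh1 replicate 1 the value was 0.25 ± 0.06 with an adjusted p of 0.0231. With all 6 libraries limma-voom also called RMRP (0.14, adjusted p 0.0392), so the call depended on replicate 1 and on the tool.

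**Figure D1:**
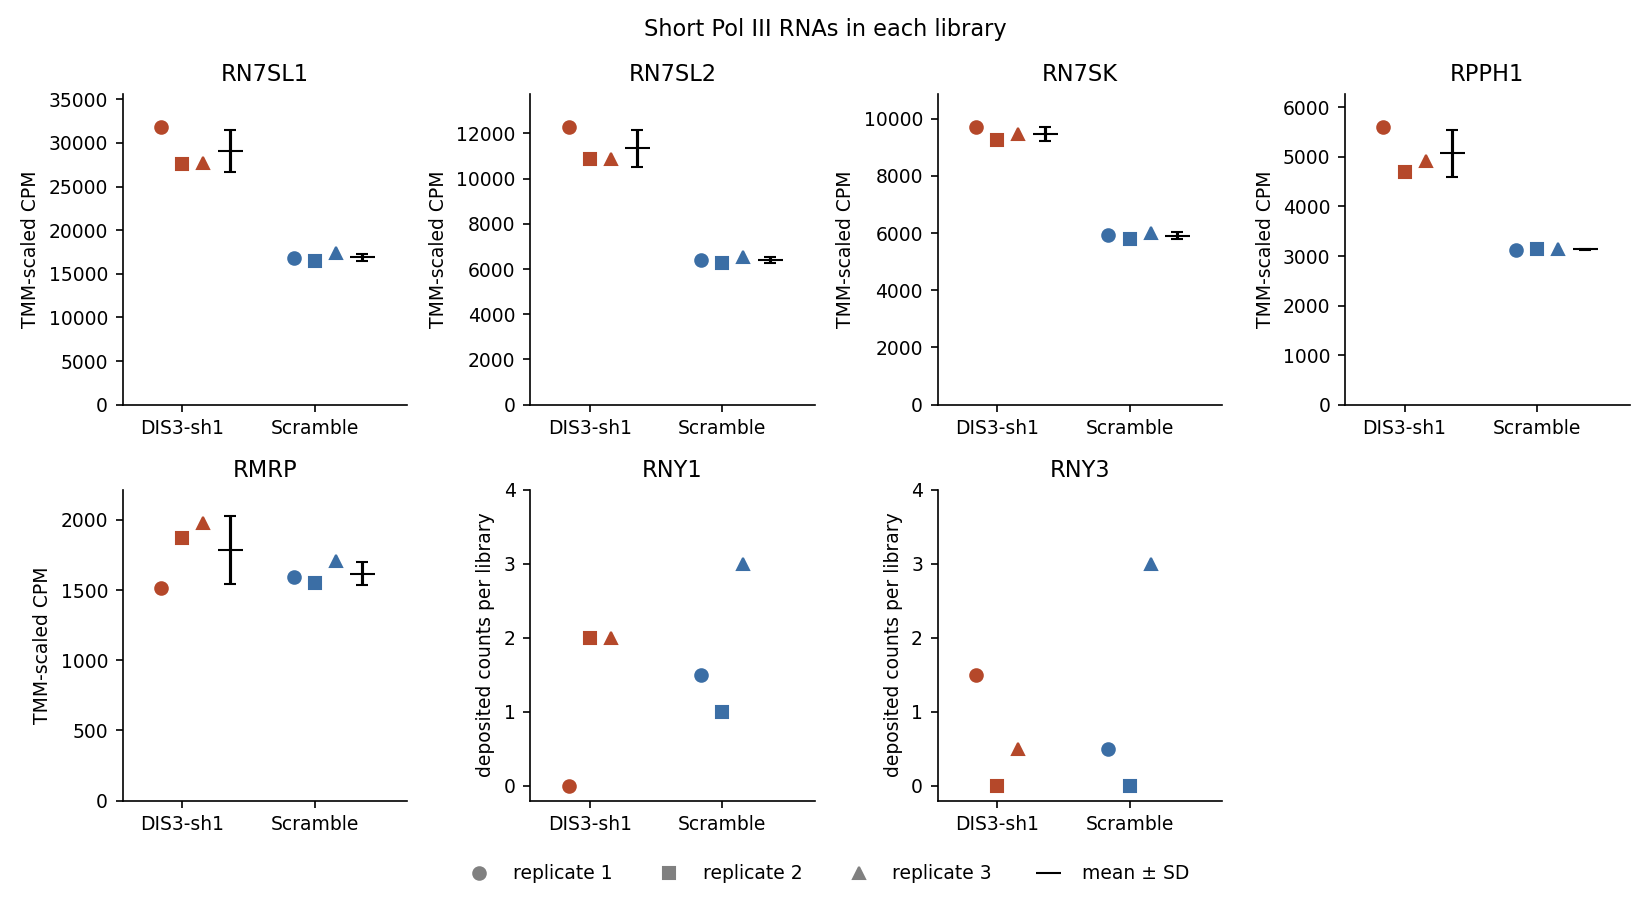
Levels of the 7 RNAs in each library, with DIS3-sh1 (red) left of Scramble (blue), a marker shape per replicate number, and the mean and SD in black. The 5 tested RNAs are in TMM-scaled CPM and RNY1 and RNY3 in deposited counts per library; the groups are apart for RN7SL1, RN7SL2, RN7SK and RPPH1, overlap for RMRP, and lie at 3 counts or fewer for the Y RNAs.

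RNY1 had 0, 2 and 2 counts in DIS3-sh1, against 1.5, 1 and 3 counts in Scramble. RNY3 had 1.5, 0 and 0.5 counts in DIS3-sh1, against 0.5, 0 and 3 counts in Scramble. Neither exceeded 3 counts in a library, which correspond to 0.127 to 0.152 CPM at these depths, so no fold change is given and a difference was not detectable at this depth. RNY4, a further Y RNA, was listed at 0 in all 6 libraries. With copies and pseudogenes summed, the RNY1 family (17 rows) had 20.5, 28.2 and 25 counts in DIS3-sh1, against 24, 24 and 15 counts in Scramble. The RNY3 family (16 rows) had 37, 32.8 and 38.7 counts in DIS3-sh1, against 37, 33.5 and 36.3 counts in Scramble. Both families overlapped between the groups, with edgeR adjusted p of 0.438 for RNY1 and 0.778 for RNY3.

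Together the 7 RNAs took 6.14, 5.49 and 5.56% of all counts in DIS3-sh1, against 3.34, 3.28 and 3.43% in Scramble. With their overlapping rows the shares were 9.07, 8.19 and 8.31% in DIS3-sh1 and 5.02, 4.94 and 5.14% in Scramble. These larger shares count reads more than once if each overlapping row holds all of the shared reads. The values are shares of a library, so a change in these RNAs and an opposite change in the rest of the RNA cannot be told apart, nor can fewer cells of a type from less RNA per cell.

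To set the RNAs against each other, overlapping rows were summed and divided by length, in CPM per kilobase. The sum takes each row to hold a part of the shared reads, which cannot be told here. If each row holds all of them, RN7SL2, RN7SK, RPPH1 and RMRP are counted more than once and RN7SL1 is not. The mean CPM of the single rows had the same order in each group. The level of RN7SL1 was 97187 ± 8097 in DIS3-sh1 and 56476 ± 1419 in Scramble (SD, n = 3 each). RN7SL2 followed with 75632 ± 5469 in DIS3-sh1 and 42658 ± 795 in Scramble, and RN7SK with 57745 ± 1442 in DIS3-sh1 and 36053 ± 685 in Scramble. RPPH1 stood at 30477 ± 2861 in DIS3-sh1 and 18819 ± 55.5 in Scramble, and RMRP at 13547 ± 1840 in DIS3-sh1 and 12261 ± 603 in Scramble. RN7SL1, RN7SL2, RN7SK, RPPH1 and RMRP kept this order in both groups, with no overlap between neighbours. RNY1 and RNY3 stayed at or under 1.44 CPM per kilobase in every library.

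The spread between libraries differed among the RNAs. The SD of log2 CPM within DIS3-sh1 was 0.20 for RMRP, 0.13 for RPPH1, 0.12 for RN7SL1, 0.10 for RN7SL2 and 0.036 for RN7SK. Among the 2179 tested genes at 100 CPM or more the median was 0.040, and 98.9% of them had a smaller spread than RMRP, 98.2% than RPPH1, 97.4% than RN7SL1, 95.4% than RN7SL2 and 44.2% than RN7SK. Within Scramble the SD was 0.070 for RMRP, 0.036 for RN7SL1, 0.028 for RN7SK, 0.027 for RN7SL2 and 0.0043 for RPPH1, beside a median of 0.028. RMRP was thus spread more than most abundant genes in both groups, while RPPH1 had a wide spread in DIS3-sh1 and a narrow one in Scramble.

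Of the DIS3-sh1 libraries, replicate 1 lay farthest from the group mean for all 5 tested RNAs. In it, RN7SL1 stood at 109.6%, RN7SL2 at 108.3%, RPPH1 at 110.5% and RN7SK at 102.6% of their group mean, but RMRP at 84.7%. Replicates 2 and 3 had RN7SL1, RN7SL2 and RPPH1 below their group mean and RMRP above it, at 104.6% and 110.7%. DIS3-sh1 replicate 1 also had the lowest mitochondrial share of its group, 2.78% against 3.42 and 3.47%, and the part of that difference in the spread was not tested. Without that library the log2 fold change was 0.72 for RN7SL1, 0.77 for RN7SL2, 0.66 for RN7SK and 0.62 for RPPH1, and all 4 remained called.

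**Figure D2:**
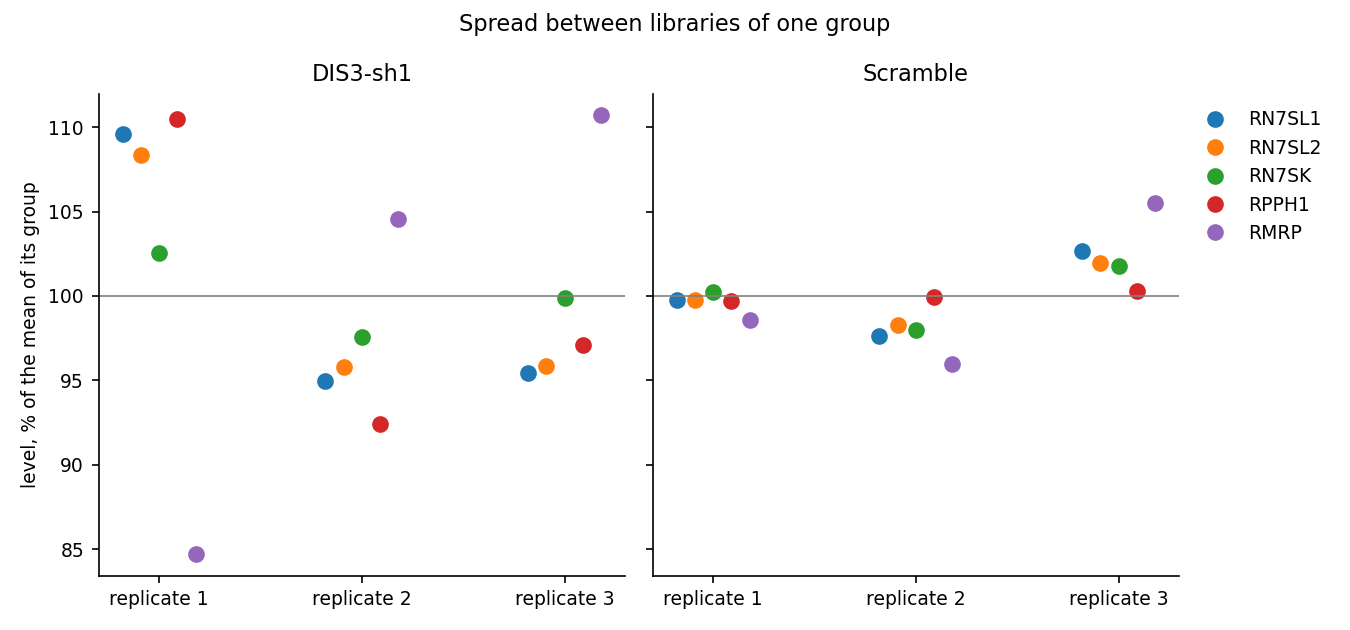
Level of each tested RNA in each library as a percentage of its own group mean, with DIS3-sh1 on the left and Scramble on the right. In DIS3-sh1 replicate 1 RPPH1 stood at 110.5% and RMRP at 84.7%, while the Scramble libraries lay between 95.9 and 105.5%.

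The RNase P and RNase MRP RNAs were compared with each other inside each library, where scaling cancels. RPPH1 over RMRP was 3.70, 2.51 and 2.49 in DIS3-sh1, against 1.96, 2.02 and 1.84 in Scramble. The groups did not overlap, and the mean ratio was 2.90 ± 0.69 in DIS3-sh1 and 1.94 ± 0.09 in Scramble (SD, n = 3 each). The exact two-sided permutation p was 0.1, the smallest that 3 against 3 libraries allow, and 0.117 after adjustment over the 7 ratios compared.

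RN7SL1 over RMRP (21.0, 14.8 and 14.0 in DIS3-sh1, against 10.6, 10.6 and 10.2 in Scramble) and RN7SK over RMRP (6.41, 4.94 and 4.78 in DIS3-sh1, against 3.71, 3.73 and 3.53 in Scramble) were also apart. RPPH1 over RN7SK was 0.577, 0.508 and 0.521 in DIS3-sh1, against 0.527, 0.541 and 0.522 in Scramble, and these overlapped (exact permutation p = 1). RN7SL1 over RN7SK was 3.28, 2.99 and 2.93 in DIS3-sh1, against 2.84, 2.85 and 2.88 in Scramble, a ratio of means of 1.07. RN7SL2 over RN7SL1 was 0.386, 0.394 and 0.392 in DIS3-sh1, against 0.379, 0.381 and 0.376 in Scramble, apart by 1.03 times. The ratios use single rows without the overlapping ones, and RN7SL1 has no overlapping second row. Ratios of RN7SL1 with RMRP, RN7SK or RN7SL2 are thus uncertain in level, while either row gives the same change between the groups. The ratios whose groups did not overlap all had an exact permutation p of 0.1, which this design cannot go below.

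**Figure D3:**
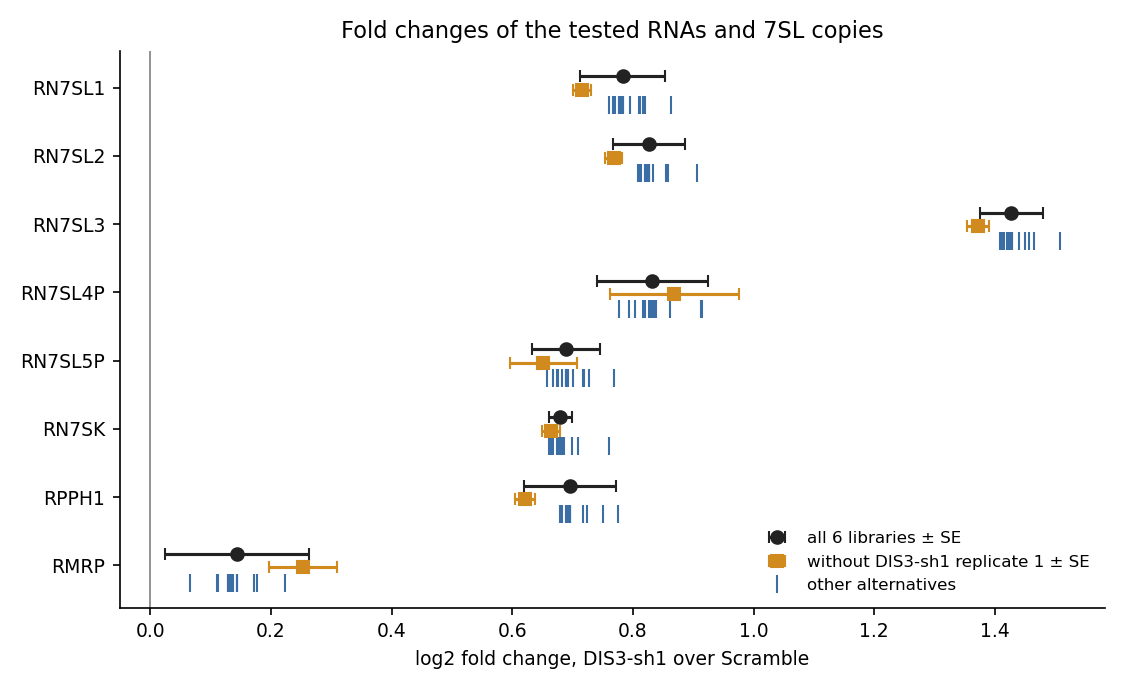
log2 fold changes of DIS3-sh1 over Scramble for the 5 tested RNAs and 3 further 7SL rows, from all 6 libraries (black, ± SE), without DIS3-sh1 replicate 1 (orange, ± SE) and under the other alternatives (blue ticks). RN7SL3 is the highest at 1.43 and RMRP the lowest at 0.14, moving to 0.25 without that library.

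The 7SL family had 680 rows in the table, counting pseudogenes, of which 310 held a count. The family was taken by symbol, so the AL627171.2 row, which nearly repeats RN7SL2, was left out. If those rows each hold a part of the shared reads, RN7SL2 has a larger share than given here and the other rows smaller ones. Summed, it was higher in DIS3-sh1 by a log2 fold change of 0.81 ± 0.06 (SE, edgeR adjusted p 0.000310), near the values of RN7SL1 and RN7SL2. RN7SL1 took 56.8 ± 0.84% of the family's counts in DIS3-sh1 and 57.9 ± 0.42% in Scramble, and RN7SL2 took 22.2 ± 0.09% in DIS3-sh1 and 21.9 ± 0.28% in Scramble (SD, n = 3 each). The share of RN7SL1 overlapped between the groups (exact permutation p = 0.2), as did that of RN7SL2 (exact permutation p = 0.2).

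RN7SL3, a further 7SL row, had a larger fold change than either. It measured 2585, 2319 and 2270 CPM in DIS3-sh1, against 870.3, 885.2 and 911.3 CPM in Scramble, and the groups did not overlap. Its log2 fold change was 1.43 ± 0.05 (SE, edgeR adjusted p 2.99e-07). Its share of the family was 4.69, 4.72 and 4.63% in DIS3-sh1, against 3.01, 3.12 and 3.02% in Scramble. RN7SL3 over RN7SL1 was 0.0811, 0.0840 and 0.0819 in DIS3-sh1, against 0.0517, 0.0537 and 0.0526 in Scramble, 1.56 times as high in the mean (exact permutation p = 0.1, adjusted 0.117). Since the copies may share reads, the counts of a single copy are uncertain.

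RN7SL4P and RN7SL5P, pseudogene rows named after their values were seen because they held most of the remaining counts, are listed outside chromosome 14. RN7SL4P (chr3:15738515-15738809) took 6.79 ± 0.72% of the family in DIS3-sh1 and 6.64 ± 0.48% in Scramble, with a log2 fold change in level of 0.83 ± 0.09 (SE, edgeR adjusted p 0.00128). RN7SL5P (chr9:9442060-9442380) took 9.42 ± 0.21% in DIS3-sh1 and 10.2 ± 0.23% in Scramble, with a log2 fold change in level of 0.69 ± 0.06 (SE, edgeR adjusted p 0.000190). The other 675 rows together held only 0.104 ± 0.0057% of the family in DIS3-sh1 and 0.217 ± 0.013% in Scramble (SD, n = 3 each). Of those, 30 were tested, 3 were higher, 8 were lower, and their median log2 fold change was -0.51. The highest group mean among the 30 was 3.17 CPM, in Scramble, so these rows rest on few counts and may share reads with other copies. Among all genes tested, 34.5% were called higher and 32.6% lower.

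**Figure D4:**
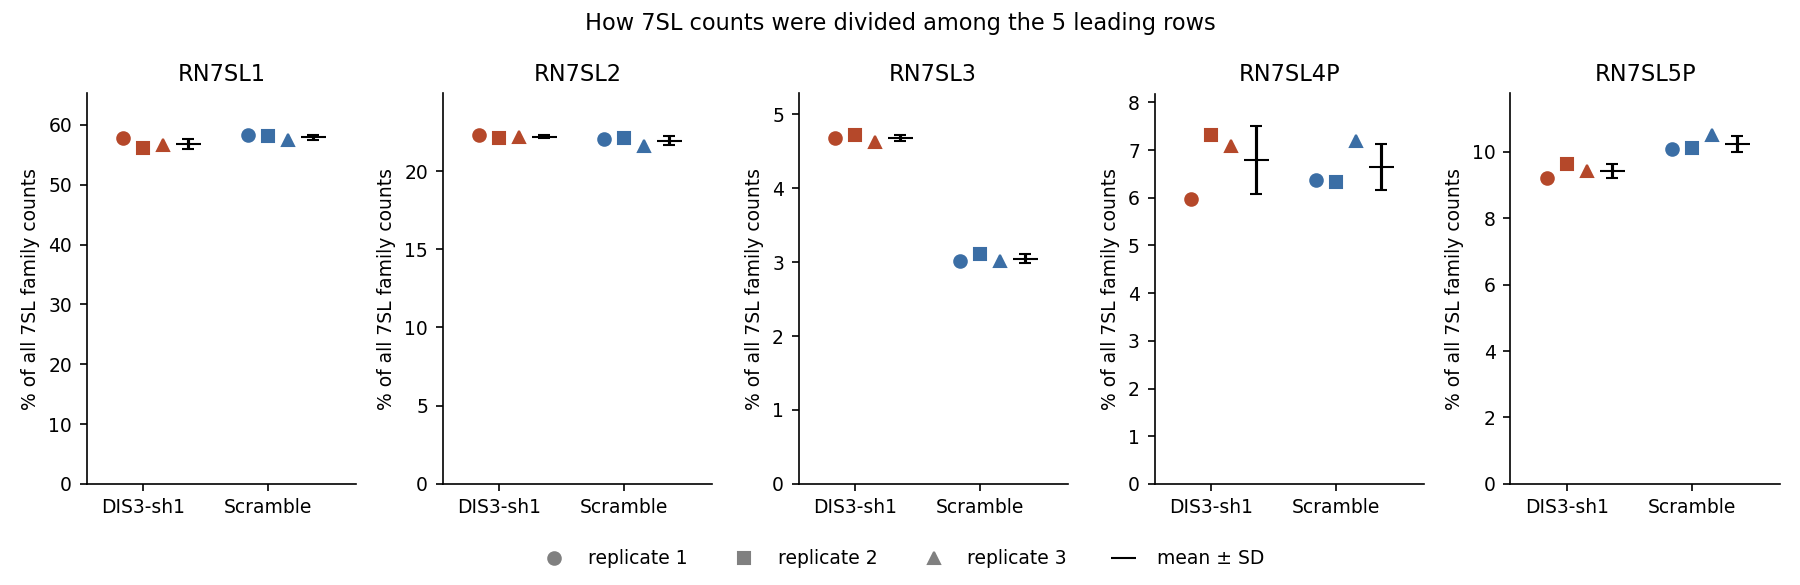
Share of all 7SL family counts held by each of the 5 leading rows, in percent, per library, with DIS3-sh1 left of Scramble and the mean and SD in black. The AL627171.2 row, which nearly repeats RN7SL2, is left out of the family. RN7SL3 held 4.63 to 4.72% in DIS3-sh1 and 3.01 to 3.12% in Scramble, while the shares of RN7SL1, RN7SL2 and RN7SL4P overlapped between the groups.

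The 7SK pseudogenes were low beside RN7SK. Of 293 further 7SK rows, 14 were tested, 4 were higher in DIS3-sh1 and 2 were lower, with a median log2 fold change of 0.36. Over all genes tested the shares were 34.5% higher and 32.6% lower. RN7SKP203, the most abundant tested one, measured 29.7, 27.2 and 29.5 CPM in DIS3-sh1, against 17.7, 18.7 and 18.6 CPM in Scramble. Its log2 fold change of 0.65 ± 0.07 (SE, edgeR adjusted p 8.68e-10) was close to the 0.68 of RN7SK. A read may fit RN7SK and its pseudogenes, and how such reads were assigned is not given in the sources used here. The 2 fold changes may therefore not be independent, which was not tested. RN7SKP203 was named after its values were seen. Of 53 further Y RNA rows, 2 were tested and 0 were called by edgeR, also at an unadjusted p under 0.05.

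Other short RNAs made by RNA polymerase III were mostly too low to test. Of 17 listed, 3 were tested: RN7SL3 was higher, VTRNA1-3 was lower and BCYRN1 was not called. VTRNA1-3, a vault RNA, measured 2.02, 2.19 and 2.33 CPM in DIS3-sh1, against 3.19, 2.38 and 3.38 CPM in Scramble (log2 fold change -0.45 ± 0.19, SE, edgeR adjusted p 0.0417). BCYRN1, the BC200 RNA, measured 17.1, 27.5 and 24.6 CPM in DIS3-sh1, against 32.9, 29.3 and 34.4 CPM in Scramble, and its adjusted p by edgeR was 0.0667. The VTRNA1-3 call was lost when any library but Scramble replicate 2 was left out, under upper-quartile or protein-coding scaling, without a filter, and with DESeq2 or limma-voom. BCYRN1 was called lower with DESeq2 (adjusted p 0.0434), limma-voom (0.000264) or no filter, and without DIS3-sh1 replicate 1 (-0.30) or 2 (-0.63). Of the remaining 14, RNY5 was matched to no row used here, and the others, among them U6, 5S and further vault RNAs, had at most 17 counts in a library.

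The protein partners were read from lists of textbook members. Among all genes tested, 34.5% were called higher and 32.6% lower in DIS3-sh1, and the counts of each list below are to be read beside these shares. Proteins of the signal recognition particle and its receptor had mixed mRNA changes: of 8 tested, 2 were higher in DIS3-sh1, 5 were lower and 1 was not called, and the median log2 fold change was -0.19. SRP72 (0.17) and SRP9 (0.09) were higher, and SRP9 was no longer called without DIS3-sh1 replicate 3 or without Scramble replicate 1 or 3, under RLE scaling (adjusted p 0.0515), or with DESeq2 (adjusted p 0.140). SRP19, which helps assemble the particle on 7SL, measured 21.5, 24.0 and 23.6 CPM in DIS3-sh1, against 38.7, 44.2 and 41.3 CPM in Scramble (log2 fold change -0.85). The receptor subunits SRPRB (-0.79) and SRPRA (-0.21), SRP14 (-0.55), which binds the Alu domain with SRP9, and SRP54 (-0.17), which binds the signal peptide, also fell. SRP68 had a log2 fold change of 0.05 and an edgeR adjusted p of 0.180. Under upper-quartile scaling SRP68 was called higher (0.13, adjusted p 0.000744) and SRP54 was not called, and under protein-coding scaling SRP68 was also called higher (0.078, adjusted p 0.0331).

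Of 7 genes of the 7SK particle and P-TEFb, 1 was higher, 6 were lower and 0 were not called, and the median log2 fold change was -0.31. HEXIM1, the main P-TEFb inhibitor held by 7SK, measured 17.2, 18.8 and 17.8 CPM in DIS3-sh1, against 43.8, 43.7 and 47.9 CPM in Scramble. All 3 DIS3-sh1 libraries were lower, with a log2 fold change of -1.33 ± 0.06 (SE, edgeR adjusted p 7.36e-18). MEPCE, which caps 7SK, fell by 0.65 on the log2 scale, and LARP7, which binds its 3′ end, fell by 0.27. The P-TEFb genes CDK9 (-0.45), CCNT1 (-0.31) and CCNT2 (-0.23) fell as well. HEXIM2, a paralog of HEXIM1, rose by 0.43, a call that was lost without Scramble replicate 2 (adjusted p 0.0697) and with DESeq2.

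Of 11 protein genes of RNase P and RNase MRP, 0 were higher, 9 were lower and 2 were not called, and the median log2 fold change was -0.73. POP1, the largest shared subunit, measured 23.1, 22.1 and 22.4 CPM in DIS3-sh1, against 63.0, 63.4 and 59.1 CPM in Scramble (log2 fold change -1.46 ± 0.06, SE, edgeR adjusted p 1.96e-20). POP4 (-0.83) and POP7 (-0.82) were next. RPP21, a subunit of RNase P, had a log2 fold change of -0.06, and RPP25L one of 0.14, and neither was called. The count of 0 higher was the same at an unadjusted p under 0.05 and with DESeq2, but RPP25L was called higher under upper-quartile scaling (0.22, adjusted p 0.0252) and without DIS3-sh1 replicate 2 (0.23, adjusted p 0.0280). A link between these 9 mRNAs and the level of RPPH1 was not tested.

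Of 5 genes of La, Ro60 and related proteins, 0 were higher, 4 were lower and 1 was not called, and the median log2 fold change was -0.43. SSB, which encodes La, measured 130.6, 138.1 and 145.1 CPM in DIS3-sh1, against 264.6, 262.7 and 259.4 CPM in Scramble (log2 fold change -0.93). LARP1 (-0.48), LARP4B (-0.43) and RO60 (-0.16) fell as well, and LARP4 had a log2 fold change of -0.08 with an edgeR adjusted p of 0.0820. LARP4 was called lower, making 5 of 5, with the replicate block (adjusted p 0.0491), under RLE scaling (0.0474) and without DIS3-sh1 replicate 3 (-0.11, 0.0282). None was higher at an unadjusted p under 0.05 or with DESeq2 either.

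Of 19 initiation factor and regulator genes for RNA polymerase III, 3 were higher, 11 were lower and 5 were not called, and the median log2 fold change was -0.18. SNAPC2 (0.31) and SNAPC3 (0.15), subunits of the complex that binds the upstream promoter element of genes such as RN7SK, and GTF3C3 (0.16), a TFIIIC subunit, were higher. SNAPC2 was not called when any of 4 libraries was left out, SNAPC3 when either of 2 was, and neither was called with DESeq2. The counts were 4 higher and 10 lower under upper-quartile scaling, 4 and 11 under protein-coding scaling, and 1 and 11 with DESeq2. ZNF143 (-1.06), an activator of small nuclear RNA type promoters, GTF3C6 (-0.81) and GTF3C4 (-0.66), TFIIIC subunits, had the largest decreases.

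Of 12 genes that tail or trim the 3′ end of small RNAs, 0 were higher, 8 were lower and 4 were not called, and the median log2 fold change was -0.29. PARN (-1.03), a deadenylase, USB1 (-0.79), which trims U6, and TENT4B (-0.66), a poly(A) polymerase that works with the exosome, had the largest decreases. At an unadjusted p under 0.05, 1 was higher, ZCCHC7, and DESeq2 called 0 as higher. ZCCHC7 was also called higher under upper-quartile scaling (adjusted p 0.00502) or protein-coding scaling (0.0290), and without DIS3-sh1 replicate 1 (0.00880) or Scramble replicate 2 (0.0377). MTREX, an RNA helicase of the exosome's nuclear cofactors, had a log2 fold change of -0.10 and was not called under those scalings or without Scramble replicate 2. DIS3L2, a cytoplasmic paralog of DIS3 that degrades uridylated RNAs, measured 32.2, 31.1 and 32.2 CPM in DIS3-sh1, against 33.7, 32.2 and 33.0 CPM in Scramble and was not called (edgeR adjusted p 0.458).

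**Figure D5:**
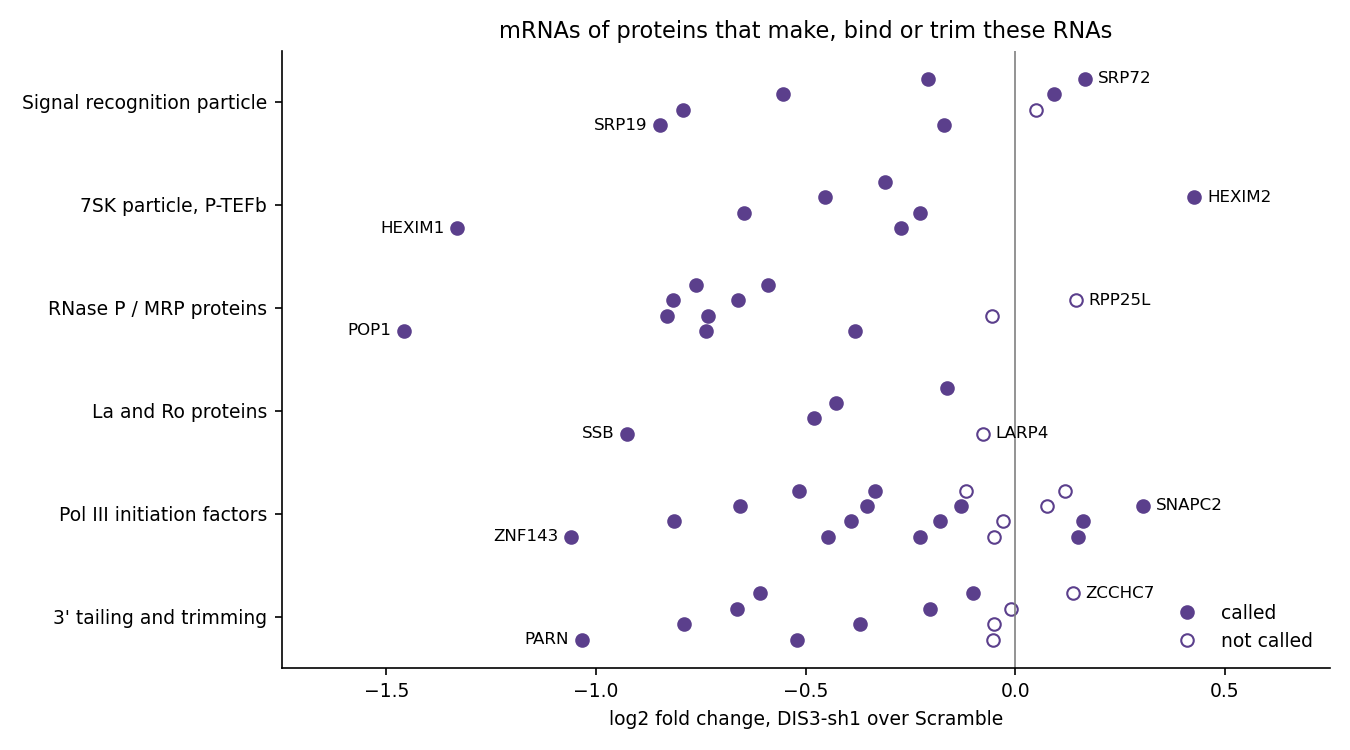
log2 fold changes of DIS3-sh1 over Scramble for the mRNAs of partner proteins, 1 point per gene and 1 row per list, filled where the edgeR call passed and open where it did not. Most filled points lie left of 0, down to -1.46 for POP1, and HEXIM2 (0.43) is the highest.

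Across the 6 libraries, which fall into 2 groups, the genes with the most similar log2 CPM pattern were sought among 11964 genes at 5 CPM or more. As a description, RN7SL1 was closest to CSRNP1, COL1A1 and THSD8, RN7SL2 to SETDB1, HK1 and BMP8B, and RPPH1 to ISL2, RPL13A and ERAP1, all with Pearson r of at least 0.999. For RN7SK the nearest were its own second row, with r of 1, then GDF1 and PLAT. RMRP had no such close partner: IGF2BP3 came first with r of 0.972, then FIP1L1 with 0.963 and CANX with 0.962. Among the RNAs themselves, the 4 that rose had r of 0.986 to 0.999 with each other, while RMRP had r of 0.309 to 0.451 with them. All these genes share library and depth, and where the groups lie apart r rests mainly on that difference.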

How the data were processed

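The authors deposited expected counts, which are read counts per gene on hg38 per the submitters' processing notes, and many of the values are fractions. Tools named in the submitters' processing notes are HISAT2 2.1.0, Bowtie2 2.3.5, featureCounts 1.5.1 and SAMtools, with build hg38. The role of each tool, the annotation, the use of strand and the treatment of reads that fit several places are not given in the sources used here. Of the values above 0 in a library, 53.24 to 56.03% were whole. Per the labels' protocols, RNA was extracted with TRIzol, depleted of ribosomal RNA with RiboMinus and built into libraries with TruSeq Stranded Total RNA, which capture RNAs shorter than the selected fragments poorly.

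Of 9 per-sample columns, 3 matched no sample label and were not used, so DIS3-sh2 is not analysed here. Gene symbols came from the reference gene names for 61803 of 61853 identifiers. Positions and sequences came from GENCODE 29 on GRCh38 (hg38), which holds 58298 of them. The sequences of the 7SL and Y RNAs are not reported here.

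Counts were rounded to whole numbers and fitted with edgeR 4.0.16 in R 4.3.3, using TMM scaling, filterByExpr by group and a model of group alone. Its robust quasi-likelihood test was two-sided, and p-values were adjusted by Benjamini-Hochberg over 19591 genes. Every adjusted p of a single gene is from that fit unless another tool is named. A call is an adjusted p under 0.05, the SE is the absolute log2 fold change over the square root of F, and intervals are 95%. With 3 libraries a group, p-values rest only on the spread between these libraries. The edgeR test moderates the spread of each gene with that of the other genes tested. The fit was also run on simulated data in which few genes were changed, so that run did not check scaling where most genes are called. Ratios within a library were compared with exact two-sided permutation tests (SciPy 1.17.1). Similarity of pattern used a pseudocount of 0.5 CPM. limma 3.58.1 (voom) and DESeq2 1.42.0 were alternatives, beside other scalings, no filter, no rounding, copies summed, a replicate block and leaving out each library.

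The members and lists were chosen with earlier results of these data known. The text names the 7 RNAs, DIS3, every tested gene of the signal recognition particle, 7SK and La lists, up to 3 called genes with the largest increase and 3 with the largest decrease of the other lists, and the 3 genes closest in pattern to each RNA. The cell line markers, the genes in overlapping rows, RPP21, RPP25L, DIS3L2, ZCCHC7, MTREX, BCYRN1, RNY4, RNY5, RN7SL4P, RN7SL5P and RN7SKP203 were named outside that rule, after their values were seen.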

Additional observations from a re-analysis of the deposited data

How the results depend on the processing

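RN7SL1, RN7SL2, RN7SK and RPPH1 kept their direction and their call in all 16 alternatives run for each. Their log2 fold changes ranged from 0.72 to 0.86 for RN7SL1, 0.77 to 0.91 for RN7SL2, 0.66 to 0.76 for RN7SK and 0.62 to 0.78 for RPPH1. RMRP crossed the threshold in 2 of 16. It was called with limma-voom (0.14, adjusted p 0.0392) and without DIS3-sh1 replicate 1 (0.25, adjusted p 0.0231), and leaving out a library gave 0.065 to 0.25. The cause was not tested. The count of genes called ranged from 11531 with DESeq2 to 13479 without a filter. Upper-quartile scaling moved the median of all genes to 0.10. Summing copies, or overlapping rows (chosen after seeing the data), changed no call of the RNAs. With copies summed, RN7SL1 and RN7SL2 had the same family fit (log2 fold change 0.81), which is listed for both and is not a separate check of each. Same-numbered libraries had correlated deviations of only 0.037, 0.014 and 0.010, although each library correlated best with its own number, so the numbers were not taken as pairs. With the replicate block 13166 genes and 4 of the RNAs were called, and RMRP stayed at 0.14 (adjusted p 0.346). The results planned for DIS3-sh2 were not run. RNY1 and RNY3, at 3 counts or fewer in a library, allow no comparison at this depth, and the cause of their low counts was not tested.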
